A study of Mus musculus with 58 samples.

Results

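The genes described here are 8 members of the mouse PRAME family, Oog1, Oog2, Oog3, Oog4, Pramel4, Pramel5, Pramel6 and Pramel7, taken by symbol from a count table of 24077 genes. Bulk RNA was sequenced at 3 stages: the fully grown oocyte (FGO), the morula, and the extraembryonic ectoderm (ExE), which is the trophoblast tissue next to the epiblast after implantation. The series tests what is lost without Pcgf1 and Pcgf6 in the mother's germ line: each encodes a defining subunit of a variant Polycomb repressive complex 1, the enzyme that places ubiquitin on histone H2A (H2AK119ub1). Of 58 samples 18 were RNA samples, and the 14 with columns in the table were used.

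The FGO groups were Pcgf1/6 double knockout (KO, 2 libraries) and wild-type control (CTR, 2 libraries), both of strain B6.129. The morula groups were Pcgf1/6 double maternal knockout (matKO, 2 libraries) and CTR (2 libraries), and the ExE groups were matKO (4 libraries) and CTR (2 libraries). The mother of every embryo was B6.129 and the father PWK, so a matKO embryo still carries paternal copies of both genes. The driver of the deletion, the age of the females and the number of animals behind a library are not given by the labels, so the p-values measure the spread between these libraries. FGO columns hold all reads of a gene, whereas morula and ExE columns hold only reads assigned to the maternal or the paternal allele, and the 2 were added for each library. An FGO library held 19805264 to 26364085 counts, a morula library 1299715 to 1685510 and an ExE library 3397585 to 4361832. Levels are CPM, the count of a gene scaled to a library total of 1000000. The floor of 3 counts stood at 0.114 to 0.151 CPM for FGO libraries, 1.78 to 2.31 CPM for morula libraries and 0.688 to 0.883 CPM for ExE libraries.

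The labels were checked on the deleted genes and on marker genes. Pcgf1 had 34.9 and 22.8 CPM in KO oocytes, against 1407 and 1100 CPM in CTR oocytes (log2 change -5.56, SE 0.24, adjusted p = 1.96e-05, edgeR). Pcgf6 was lower by less (log2 change -1.14, SE 0.19, adjusted p = 0.0102, edgeR). Which exons were deleted is not given, so reads of Pcgf6 from outside the deleted part are possible. In embryos the total of Pcgf6 was not called different, and Pcgf1 had few reads. Pcgf1 had 4 and 4 reads in matKO morulae, against 1 and 0 in CTR morulae, and at most 1 read in an ExE library. Pcgf6 had 199, 177, 208 and 175 CPM in matKO ExE, all below the 296 and 265 CPM of CTR ExE. Its log2 changes were -0.04 in matKO morulae (SE 0.14, adjusted p = 0.915, edgeR) and -0.59 in matKO ExE (SE 0.13, unadjusted p = 0.000651, adjusted p = 0.133, edgeR). Its share of maternal reads shifted down in matKO ExE (log2 shift -1.26, SE 0.14, adjusted p = 1.07e-05, and -1.27 without matKO replicate 3, whose reads were less maternal overall), while in matKO morulae the shift of -0.92 (SE 0.18) did not pass (adjusted p = 0.236, edgeR). Counts were found for all 8 oocyte markers in each FGO library, for 8 of 10 morula markers in each morula library (Pou5f1 and Fgf4 were at 0 in all 4) and for 8 or 9 of 10 ExE markers in each ExE library (Bmp4 was at 0 in all 6). Counts alone did not tell the stages apart, as 8 or 9 of 10 morula markers also had them in FGO libraries. Summed levels differed. The oocyte markers took 12270 to 17540 CPM in FGO libraries and 58.7 to 102 CPM in morula libraries. The morula markers took 2024 to 2440 CPM in morula libraries and 266 to 313.5 CPM in FGO libraries. The ExE markers took 1376 to 1583 CPM in ExE libraries and 427 to 473 CPM in morula libraries.

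PRAME proteins are built of leucine-rich repeats, and the family is named after a human antigen that melanoma cells present. In rodents the genes have multiplied into large clusters that are read mainly in germ cells and early embryos. Oog1, or oogenesin 1, was described as a protein of mouse oocytes and cleavage embryos. Human PRAME and mouse Pramel7 act as substrate adaptors of Cullin 2 ubiquitin ligases, and Pramel7 directs the DNA methylation cofactor UHRF1 to degradation in mouse embryonic stem cells. Pramel6 likewise favours the DNA-hypomethylated ground state of pluripotency in such cells.

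The 8 genes lie on 3 chromosomes of GRCm38.p6, the assembly of the RefSeq table used for names. Oog4 (chr4:143437164-143450324), Pramel4 (chr4:144059125-144069327), Oog3 (chr4:144157556-144162651), Oog2 (chr4:144190717-144196934) and Pramel5 (chr4:144270633-144280466) follow each other on chromosome 4. Oog1 is on chromosome 12 (chr12:87602665-87608845). Pramel7 (chr2:87489088-87492418) and Pramel6 (chr2:87506565-87510865) are neighbours on chromosome 2.

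The sequences around the start sites are shown because genes of the 2 stages lie in 1 cluster while their start windows differ. Each window is RefSeq sequence (GRCm38.p6), 5′ to 3′ on the gene's strand, with 250 bases before and 50 after the annotated start, and all 8 genes had one. The windows of the 4 Oog genes follow. Capitals mark TTCAGCTGAAA, an 11-base run in all 4, and TAATTG or its complement CAATTA, the core that the oocyte factor NOBOX is known to bind.
Oog1 (chr12:87602415-87602714, plus strand): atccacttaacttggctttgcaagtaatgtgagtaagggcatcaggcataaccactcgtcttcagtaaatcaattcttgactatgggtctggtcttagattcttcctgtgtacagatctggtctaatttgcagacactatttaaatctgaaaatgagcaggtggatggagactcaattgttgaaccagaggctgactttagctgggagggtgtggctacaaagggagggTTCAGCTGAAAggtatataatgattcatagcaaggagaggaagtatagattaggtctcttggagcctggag
Oog2 (chr4:144190467-144190766, plus strand): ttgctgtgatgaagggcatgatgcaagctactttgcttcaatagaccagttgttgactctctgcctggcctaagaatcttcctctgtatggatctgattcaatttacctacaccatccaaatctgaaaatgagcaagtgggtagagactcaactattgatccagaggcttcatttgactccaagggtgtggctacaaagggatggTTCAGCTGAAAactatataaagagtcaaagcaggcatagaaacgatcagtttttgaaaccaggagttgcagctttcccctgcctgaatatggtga
Oog3 (chr4:144162602-144162901, minus strand): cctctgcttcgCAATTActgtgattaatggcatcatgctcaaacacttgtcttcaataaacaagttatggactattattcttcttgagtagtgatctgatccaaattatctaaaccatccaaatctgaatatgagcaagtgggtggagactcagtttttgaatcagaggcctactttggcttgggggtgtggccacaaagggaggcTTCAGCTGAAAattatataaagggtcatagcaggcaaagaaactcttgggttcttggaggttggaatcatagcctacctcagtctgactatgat
Oog4 (chr4:143450275-143450574, minus strand): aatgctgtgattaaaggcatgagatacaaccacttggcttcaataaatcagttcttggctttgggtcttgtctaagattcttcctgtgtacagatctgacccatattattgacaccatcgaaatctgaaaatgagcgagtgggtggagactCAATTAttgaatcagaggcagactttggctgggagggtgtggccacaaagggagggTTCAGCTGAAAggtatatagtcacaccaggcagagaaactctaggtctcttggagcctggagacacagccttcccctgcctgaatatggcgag

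Pramel4 and Pramel5 are shown as the most alike pair among the 4 morula genes. Capitals mark their longest shared run of 111 bases.
Pramel4 (chr4:144058875-144059174, plus strand): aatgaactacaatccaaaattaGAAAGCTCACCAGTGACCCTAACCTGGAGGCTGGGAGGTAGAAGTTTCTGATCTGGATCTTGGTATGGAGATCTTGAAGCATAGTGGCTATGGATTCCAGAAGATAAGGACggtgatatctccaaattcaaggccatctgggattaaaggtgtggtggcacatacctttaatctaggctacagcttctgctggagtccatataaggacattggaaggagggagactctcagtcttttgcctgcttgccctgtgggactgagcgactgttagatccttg
Pramel5 (chr4:144280417-144280716, minus strand): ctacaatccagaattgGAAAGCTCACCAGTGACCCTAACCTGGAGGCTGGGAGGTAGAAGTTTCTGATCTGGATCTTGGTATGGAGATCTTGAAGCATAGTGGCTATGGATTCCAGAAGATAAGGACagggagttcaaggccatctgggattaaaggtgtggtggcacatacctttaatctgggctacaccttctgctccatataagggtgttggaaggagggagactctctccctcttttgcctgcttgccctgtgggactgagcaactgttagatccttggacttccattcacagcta

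The 8 genes fell into 2 sets of 4 by stage, and none of the 8 was above the floor in more than 1 stage in both libraries of a group. Oog1, Oog2, Oog3 and Oog4 were read in FGO, and Pramel4, Pramel5, Pramel6 and Pramel7 in morulae. Oog1 had 85.9 and 92.6 CPM in KO oocytes, against 94.6 and 92.8 CPM in CTR oocytes, and no read in any morula or ExE library. Oog2, at 345 and 424 CPM in KO oocytes and 657 and 593 CPM in CTR oocytes, also had no read in embryos. Pramel5, Pramel6 and Pramel7 had no read in any of the 4 FGO libraries, which allows a level of up to 0.151 CPM.

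A few reads crossed this divide. Oog3 had 4 and 1 reads in matKO morulae, against 0 and 7 reads in CTR morulae, and all 12 were maternal. Oog4 had 1 read in morulae, in matKO replicate 2, and it was maternal too. These reads show that at least some positions in Oog3 and Oog4 can be assigned to a parent. For Oog1 and Oog2 nothing shows this, so their zeros in embryos could not be told apart from reads that cannot be assigned. Pramel4 had 0 and 2 reads in KO oocytes, against 5 and 0 reads in CTR oocytes, where its highest level was 0.19 CPM. In ExE no read fell on any of the 8 genes in any of the 6 libraries, nor on any of the other 28 PRAME family rows, so no member could be tested there. Of 8386 genes tested in ExE, 0% were called with edgeR, while 1161 had an unadjusted p under 0.05 and DESeq2 called 212.

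**Figure D1:**
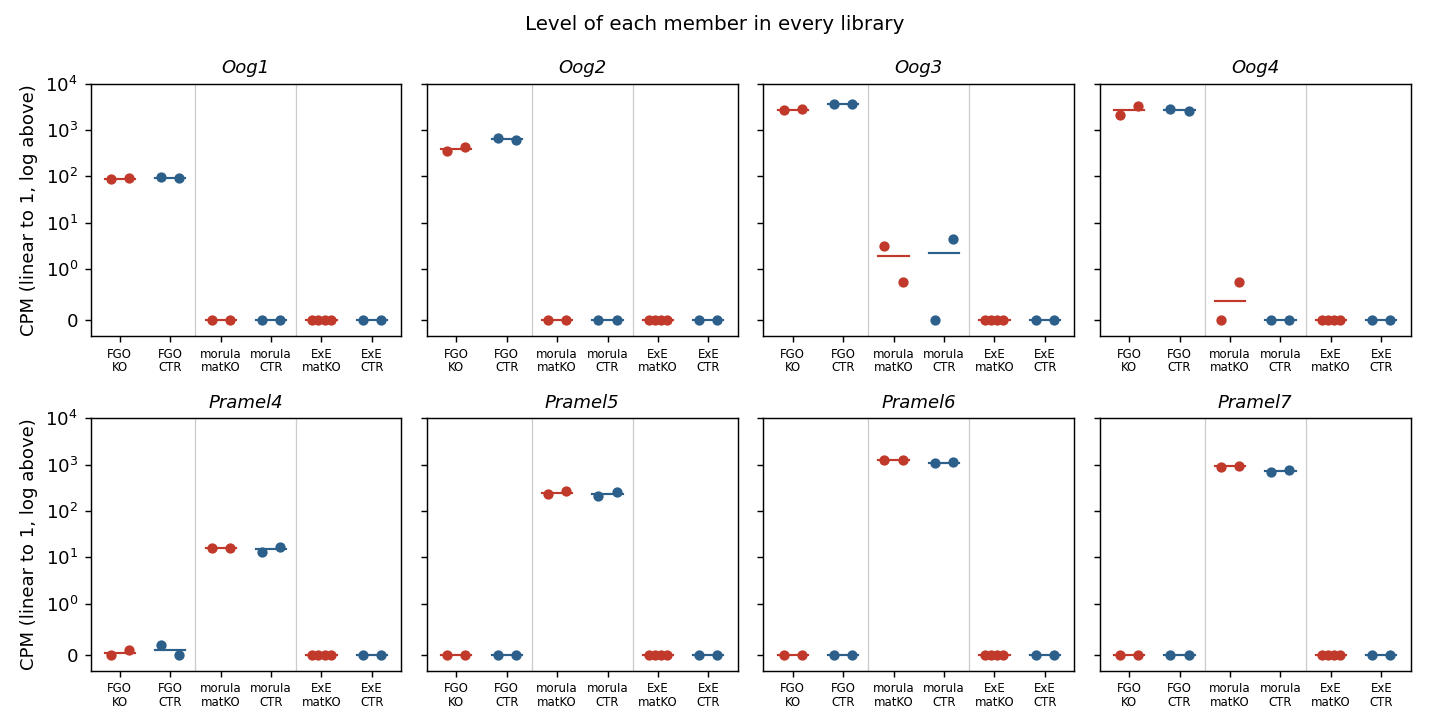
Level of each of the 8 genes in CPM (linear to 1 and logarithmic above) in every library of the FGO, morula and ExE groups, with 1 point a library and a line at the group mean. The 4 Oog genes stand at 85.9 to 3633 CPM in FGO and the 4 Pramel genes at 13.1 to 1289 CPM in morulae, while all 8 are at 0 in ExE.

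The likeness of other genes was measured as the Pearson correlation of log2(CPM + 1) over the 14 libraries among 13502 genes. For Oog3, chosen as the Oog gene with the most CPM in CTR oocytes, the 5 closest were Astl, Trim75, Rnps1, Rgs10 and Mfap2, at 0.9965 to 0.9974. For Pramel6 they were Slc39a2, Tcf23, Bhmt, Trim43a and Lst1, at 0.9997 to 1. Astl encodes ovastacin, the oocyte protease that hardens the zona pellucida after fertilisation. Such correlations rest mostly on the difference in level between stages, which also differ in depth and in whether all reads or only allele-assigned reads were counted.

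Across the whole family the table held 36 rows with a PRAME family symbol, either their own or the one in the reference. By CTR level, with at least 5 CPM and a 10-fold difference between the stages, 14 rows were FGO rows, 7 were morula rows, 3 were at 5 CPM or more in at least 1 stage with less than a 10-fold difference, and 12 stayed under 5 CPM in both. These classes set all reads in FGO beside only allele-assigned reads in morulae, so the levels are not strictly comparable. For an FGO row without reads in morulae, such as C87499, absence could not be told apart from reads that cannot be assigned. Among the other 28 rows, Gm13084 (Pramel26), Gm13103 (Pramel27), Gm13023 (Pramel25) and Gm10436 (Pramel51) took the most counts in CTR oocytes, with means of 2650, 1513, 1426 and 1353 CPM. B020004J07Rik (Pramel17) and Pramef8 (Pramel12) did so in CTR morulae, with means of 85.1 and 82.0 CPM. Levels are not ordered between genes here, since no transcript length was at hand. The PRAME family rows together took 1.35% and 1.66% of all counts in KO oocytes, against 1.77% and 1.75% in CTR oocytes.

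On chromosome 4, 21 family rows formed 1 cluster, which held FGO rows, morula rows and rows of neither kind. Pramel4 was the only morula row with FGO rows on both sides. Between Oog4 and Oog3 the rows ran through oocyte genes such as Gm13084, mixed with rows under 5 CPM in both stages. Pramef17 and then Pramel4 came next. Pramef17, a row of neither kind, had means of 9.17 CPM in CTR morulae and 2.46 CPM in CTR oocytes. Oog3, Oog2 and C87977 (Pramel29) were followed by Pramel5 and Gm13128 (Pramel30), read in morulae.

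**Figure D2:**
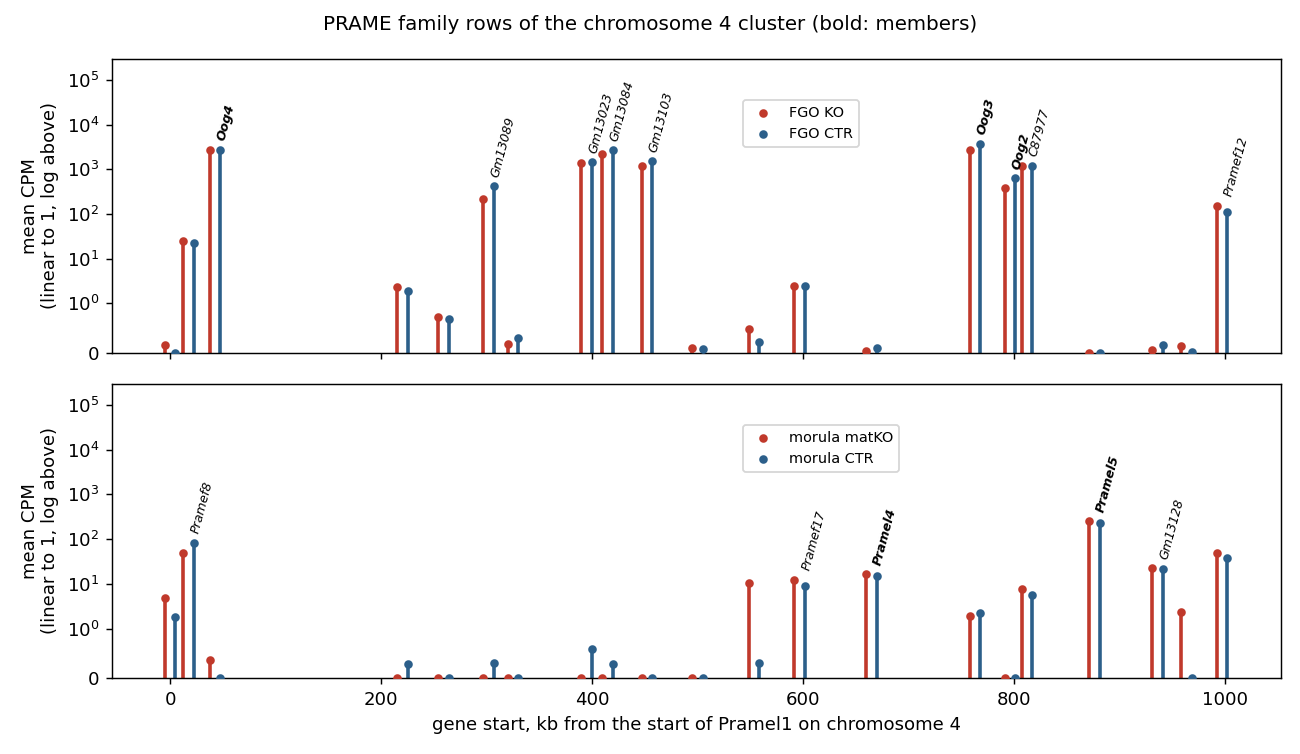
Mean CPM (linear to 1, logarithmic above) of the 21 PRAME family rows in the chromosome 4 cluster against gene start in kb from Pramel1, in FGO (upper panel, KO and CTR) and morulae (lower panel, matKO and CTR). Oog4, Oog3 and Oog2 stand in the upper panel and Pramel4 and Pramel5 in the lower, with Pramel4 lying between Oog4 and Oog3.

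The start windows of the 4 Oog genes were more alike than those of the Pramel genes. Identical bases of the 300, aligned with free ends, were 69% to 78% over the 6 pairs of Oog genes (median 74.3%), 28% to 66.3% over the 16 pairs of an Oog and a Pramel gene (median 58%), and 14% to 89% over the 6 pairs of Pramel genes (median 54.5%). For scale, of the 32820 windows belonging to no family row 99% were at or under 60.7% to 61.3% for each of the 8 genes. These windows include that of Pramel45, which has a PRAME name but was matched to no counted row. Pramel4 and Pramel5 shared 89%, and both were closer still to Gm13102 (92.3% and 90.7%), a gene with no PRAME name in the reference. A window of Sgk1, a kinase gene, shared 85.7% with that of Pramel4. The window of Pramel6 was closest to Gm13103 (67.7%), C87499 (67%) and Oog4 (66.3%), while the closest outside the family reached 64.7%. Pramel7 was closest to Pramef17 (Pramel14, 79.7%) and Gm13128 (78.3%) and not to its neighbour Pramel6. The Oog2 window shared 94.3% with that of Gm13084, and the Oog1 window 99.7% with that of Gm2042. The Gm2042 row lies on the same chromosome as Oog1 (chr12:87954480-87960682) and carries no PRAME name in the reference. How reads that match several copies were counted is not given, so counts of Oog1 and Oog2 may be split with these rows. Gm2042 had 143 and 127 CPM in KO oocytes, against 128 and 126 CPM in CTR oocytes (log2 change -0.01, SE 0.13).

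**Figure D3:**
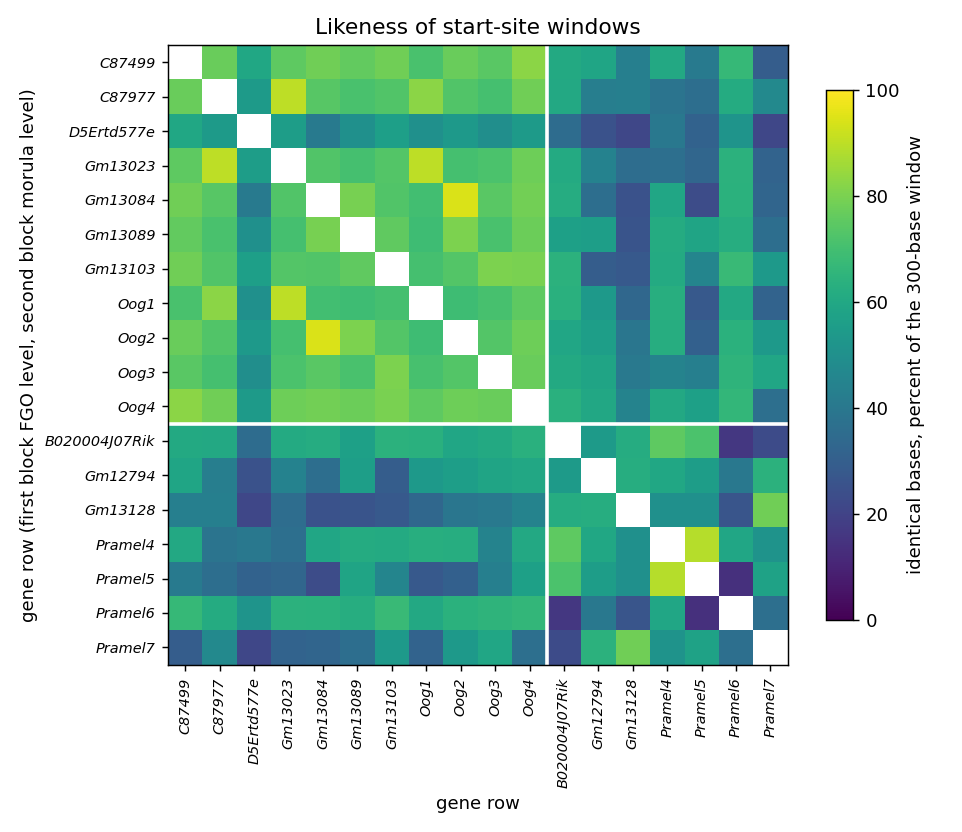
Percent of identical bases between 300-base start windows for the 11 FGO rows with a window (first block) and the 7 morula rows (second block). The first block has a median of 73.3% over its 55 pairs, against 51.7% over the 77 pairs between the blocks.

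Motifs were searched on both strands. TAATTG stood in 7 of 11 windows of FGO rows, in 0 of 7 of morula rows, and in 8% of all 32851 windows. Among the members it was found in Oog3 (start at position -239) and Oog4 (-99) and not in Oog1, Oog2 or the 4 Pramel genes. TAATTA was in 1 of 11 and 0 of 7, against 5.29% of all windows. The E-box CACGTG, which the MAX and MGA subunits of PCGF6 complexes are known to bind, was in 0 of 11 and 0 of 7, against 7.15%. TCCCGC, an E2F-type core, was in 0 of 11 and 0 of 7, against 20% of all. TTCNNNGAA, the STAT core, was in 0 of 11 and 0 of 7, against 8.3%. CANNTG, the general E-box, which overlaps CACGTG, was in 11 of 11 and 7 of 7, against 72.3%.

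The run TTCAGCTGAAA was picked after the 4 Oog windows had been read, and it contains a CANNTG match. It began 21 bases before the start of Oog1 and 45, 44 and 43 bases before the starts of Oog2, Oog3 and Oog4. Of all 32851 windows 17 held it (0.0518%). Besides the 4 Oog genes these were C87499 (Pramel32), Gm13089 (Pramel23), Gm13084, Gm2042 and 9 windows of other genes. None of the 7 morula rows had it. These windows descend from common copies, so they are not independent of each other, and a match is not shown to be a bound site.

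In KO oocytes Oog2 fell, and it was the only one of the 4 Oog genes called. Oog2 averaged 385 ± 55.8 CPM in KO oocytes and 625 ± 45.2 CPM in CTR oocytes (SD, n = 2 each). The log2 change was -0.78 (SE 0.19, adjusted p = 0.0441, edgeR). Among all 13459 genes tested in FGO, 7.22% were called, 1.87% as lower, against 1 of 4 Oog genes. The call was lost without CTR replicate 1 (log2 change -0.72, adjusted p = 0.195) or without CTR replicate 2 (-0.85, adjusted p = 0.0853), with the remaining CTR library assumed to vary like the KO group.

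Oog3 had 2753 and 2768 CPM in KO oocytes, against 3593 and 3633 CPM in CTR oocytes. The groups did not overlap, as for 18.1% of all genes in this direction. The log2 change of -0.48 (SE 0.18) did not pass (adjusted p = 0.162, edgeR). It was -0.38 without KO replicate 1 and -0.60 without KO replicate 2. Each of these runs leaves 1 KO library, so the spread came from the CTR libraries alone.

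Oog4 split the KO libraries. It had 2106 and 3280 CPM in KO oocytes, 1 below and 1 above the 2808 and 2574 CPM of CTR oocytes. The means were 2693 ± 830 CPM in KO and 2691 ± 166 CPM in CTR oocytes (SD, n = 2 each), and the log2 change was -0.07 (SE 0.27, adjusted p = 0.918, edgeR). The log2 change of Oog4 turned to 0.29 without KO replicate 1 and was -0.56 without KO replicate 2, with 1 KO library left in each run. Oog1 averaged 89.2 ± 4.72 CPM in KO and 93.7 ± 1.26 CPM in CTR oocytes (SD, n = 2 each), with a log2 change of -0.16 (SE 0.16, adjusted p = 0.619, edgeR).

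KO replicate 1 was also the lower library in other respects. The 4 Oog genes summed to 5290 and 6565 CPM in KO oocytes, against 7152 and 6892 CPM in CTR oocytes. The 8 oocyte markers summed to 12270 and 17170 CPM in KO oocytes, against 17540 and 17060 CPM in CTR oocytes. Of the 15 granulosa and cumulus markers, 12 had counts in each KO library and 14 in each CTR library, with sums of 204 and 101 CPM in KO, against 104 and 105 CPM in CTR oocytes, and Ptx3 was at 0 in all 4. Without KO replicate 1, which leaves 1 KO library, the log2 change of Oog2 was -0.55. The part of the other values in the Oog changes was not tested, and in bulk RNA fewer cells of a type and less RNA per cell cannot be told apart.

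**Figure D4:**
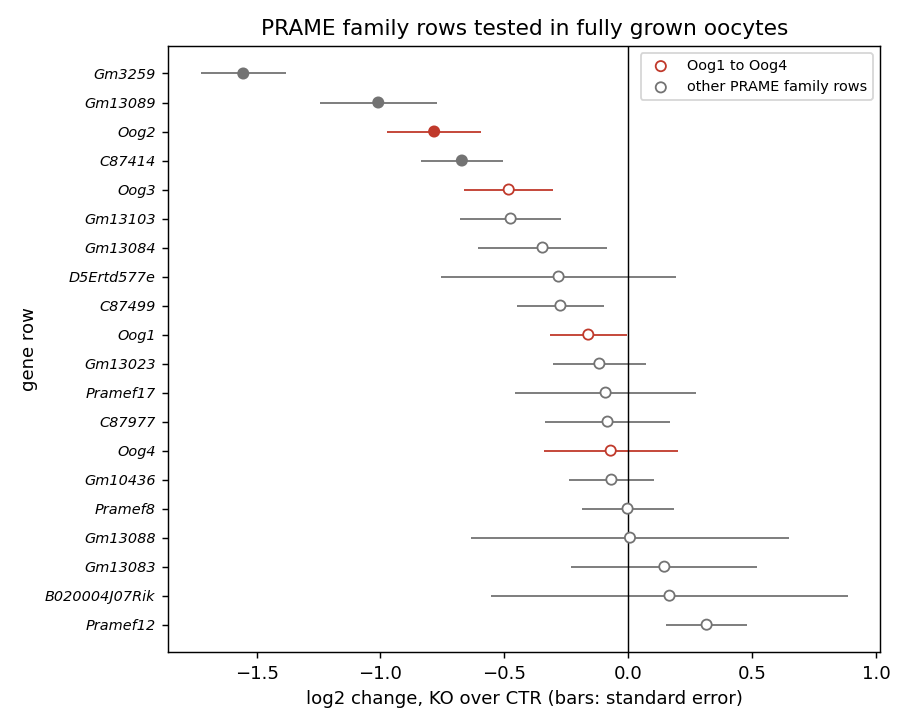
Log2 change, KO over CTR oocytes, with its standard error, for the 4 Oog genes and the 16 other PRAME family rows tested. Filled points passed an adjusted p of 0.05: Oog2 at -0.78, and Gm3259, Gm13089 and C87414 at -1.55, -1.01 and -0.67.

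Of the 28 other family rows 16 were tested in FGO. None rose and 3 fell, or 3 of 16 beside 1.87% of all genes called lower, and their median log2 change was -0.10, beside 0.00 over all genes tested. Gm3259 (Pramel47) had 49.1 and 33.0 CPM in KO oocytes, against 117 and 106 CPM in CTR oocytes (log2 change -1.55, SE 0.17, adjusted p = 0.00177, edgeR). Gm13089 (Pramel23) had 190 and 246 CPM in KO oocytes, against 483 and 345 CPM in CTR oocytes (log2 change -1.01, adjusted p = 0.0444). C87414 (Pramel34) had 554 and 594 CPM in KO oocytes, against 855 and 862 CPM in CTR oocytes (log2 change -0.67, adjusted p = 0.0455). In all 3 the KO libraries lay below both CTR libraries, as for 18.1% of all genes.

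The other lists place the Oog changes in the oocyte. Of all genes tested in FGO 5.35% were called higher. Of 29 oocyte genes tested, Sohlh1 and Sohlh2, transcription factors of early follicles, rose, none fell, and the list median was -0.16. Sohlh1 had 124 and 64 counts in KO oocytes, against 0 and 1 in CTR oocytes, and Sohlh2 had 1070 and 863 counts, against 84 and 87. Among 17 genes of ground state pluripotency 3 rose, Klf5 with 26 and 20 counts in KO oocytes, against 0 and 1 in CTR oocytes, and Klf4 and Sox2 (log2 changes 3.25 and 3.40). Zscan4d, 1 of 7 tested genes of the 2-cell stage, fell by 2.47 on the log2 scale. All 7 had negative log2 changes, with a median of -1.02, beside 0.00 over all genes tested. None of 15 genes of the Cullin 2 ligase, with which PRAME proteins can work, and none of 10 genes of UHRF1 and DNA methylation passed.

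No member passed in matKO morulae with edgeR, while 2 of the 4 tested, Pramel7 and Pramel6, had an unadjusted p under 0.05. Of all 9063 genes tested in morulae, 1791 had an unadjusted p under 0.05, and 0.132% were called, 0.0221% as higher. Pramel7 had 908 and 939 CPM in matKO morulae, against 691 and 750 CPM in CTR morulae. Its means were 924 ± 22.2 CPM in matKO and 721 ± 41.8 CPM in CTR morulae (SD, n = 2 each), with a log2 change of 0.40 (SE 0.09, adjusted p = 0.086, edgeR). It was called by DESeq2 (log2 change 0.40, adjusted p = 0.0454) and by edgeR without a filter on low counts (adjusted p = 0.0285). With DESeq2 size factors in edgeR it did not pass (adjusted p = 0.0997). The log2 change of Pramel7 was 0.33 without CTR replicate 1 and 0.48 without CTR replicate 2, runs that leave 1 CTR library.

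Pramel6 had 1241 and 1289 CPM in matKO morulae, against 1071 and 1122 CPM in CTR morulae. The log2 change was 0.25 (SE 0.08, adjusted p = 0.166, edgeR). For both Pramel7 and Pramel6 the matKO libraries lay above both CTR libraries, as did 23.5% of all genes tested.

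Pramel5 had 232 and 266 CPM in matKO morulae, against 209 and 256 CPM in CTR morulae, and the groups overlapped (log2 change 0.14, SE 0.15, adjusted p = 0.639, edgeR). Pramel4 rested on 21 and 22 reads in matKO morulae, against 22 and 27 reads in CTR morulae, or 16.2 and 16.3 CPM against 13.1 and 17.0 CPM (log2 change 0.15, SE 0.43, adjusted p = 0.88, edgeR). With so few reads a difference of this size was not detectable for Pramel4. The 4 Pramel genes summed to 2397 and 2511 CPM in matKO morulae, against 1984 and 2146 CPM in CTR morulae. The 10 trophectoderm markers summed to 1273 and 1446 CPM in matKO morulae, against 2075 and 1884 CPM in CTR morulae, and the 10 morula markers to 2024 and 2440 CPM in matKO, against 2062 and 2276 CPM in CTR morulae. Their part in the Pramel values was not tested.

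None of the 6 other family rows tested in morulae passed. None of the genes tested in the lists passed either: 13 of ground state pluripotency (median log2 change 0.10), 12 of the Cullin 2 ligase (0.11), 9 of UHRF1 and DNA methylation (-0.05), 5 oocyte genes (0.45) and 4 genes of the 2-cell stage (0.24), beside a median of -0.02 over all genes. For Uhrf1 RNA the log2 change was -0.81 (SE 0.31, adjusted p = 0.21, edgeR), and the lowest of the 9 genes of its list was at -0.84. Pramel7 is known to act on UHRF1 protein, which was not measured in these RNA libraries.

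The difference of the knockout effect between stages was tested for all 8 genes between morulae and FGO and for the 4 Pramel genes between ExE and morulae. None passed, against 2.62% and 0.34% of all genes. Each gene was at or near 0 in 1 of the 2 stages compared, so these tests say nothing of whether the effects differed.

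Parental origin was read from the allele columns of morulae. In CTR morulae Pramel4 was read almost wholly from the paternal allele, and Pramel5, Pramel6 and Pramel7 from both alleles about equally. Pramel4 had 1 maternal read of 21 and 0 of 22 in matKO morulae, against 2 of 22 and 1 of 27 in CTR morulae. The pooled maternal share was 2.33% in matKO (95% exact Clopper-Pearson interval 0.0589 to 12.3%) and 6.12% in CTR morulae (1.28 to 16.9%). In CTR morulae its log2 ratio of maternal over paternal reads, relative to the autosomal totals of both, was -3.89 (SE 0.73, adjusted p = 0.0107, edgeR). Of 7637 genes tested 25.2% were called unequal, 10.4% in this direction, against 1 of 4 Pramel genes. The call was lost without CTR replicate 1 (log2 ratio -4.60, adjusted p = 0.0682) or replicate 2 (-3.31, adjusted p = 0.119). Since the mother is always B6.129 and the father PWK, parent and strain cannot be told apart, and no reciprocal cross was analysed here. How reads shared with close copies were assigned to an allele is not given either. The row of Gm13102, whose start window is the closest to that of Pramel4, had 0 counts in all 14 libraries. The part of such copies in the share of Pramel4 was not tested.

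Pramel6 was 50.8% and 49.4% maternal in matKO morulae, against 49.5% and 49.2% in CTR morulae. Its log2 ratio in CTR morulae was -0.12 (SE 0.04, adjusted p = 0.055, edgeR), with 1770 maternal reads of 3586. Log2 ratios here are relative to the autosomal totals of both alleles, so equal reads need not give 0. Of all allele-assigned counts 51.9% and 52.0% were maternal in CTR morulae. Pramel7 was 51.0% and 51.0% maternal in matKO morulae, against 51.9% and 51.1% in CTR morulae. Pramel5 was 51.8% and 51.3% maternal in matKO morulae, against 49.4% and 50.4% in CTR morulae. In both of these the log2 ratio in CTR morulae was within its SE of 0 (Pramel7 0.01, SE 0.06, and Pramel5 -0.09, SE 0.10).

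The maternal share was not shown to shift in matKO morulae for any of the 4. edgeR called none, no unadjusted p was under 0.05, and 0.0393% of all genes were called. The log2 shifts were 0.01 for Pramel7 (SE 0.08), 0.08 for Pramel6 (SE 0.06), 0.13 for Pramel5 (SE 0.14) and -1.26 for Pramel4 (SE 1.48). Exact permutation tests of the shares gave p = 0.333 to 0.667, two-sided, and with 2 against 2 libraries they cannot go below 0.333. DESeq2 was not run on the alleles.

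**Figure D5:**
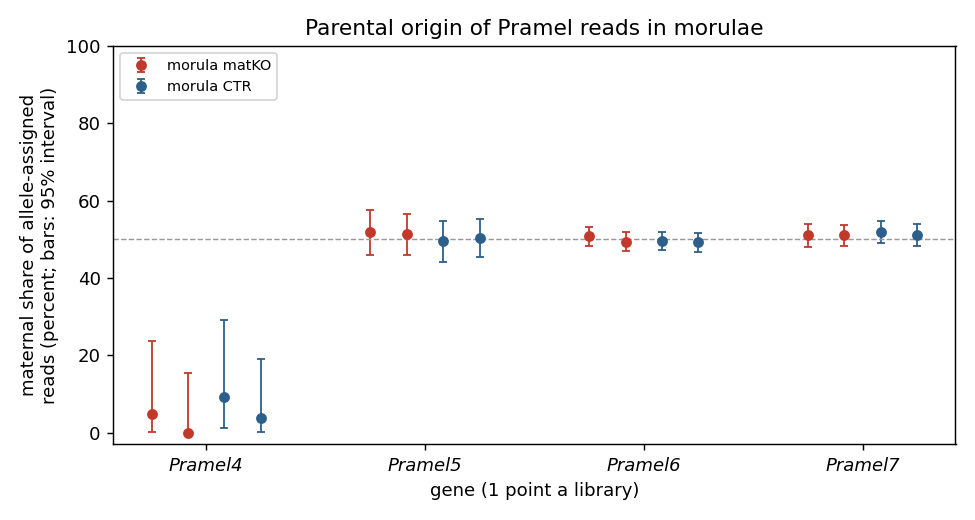
Maternal share of allele-assigned reads in percent, with exact 95% intervals, of Pramel4, Pramel5, Pramel6 and Pramel7 in 2 matKO and 2 CTR morula libraries, 1 point a library. Pramel4 lies at 0 to 9.09% and the other 3 genes at 49.2 to 51.9%.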

How the data were processed

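RNA libraries were made with SMART-Seq v4 and Nextera XT, which do not mark strand, per the labels' protocols. The authors deposited counts of reads by gene, raw per the file headers, with 1 column for an FGO library, and a maternal and a paternal column for a morula or ExE library, which were summed. The aligner, the annotation, the allele rule and the handling of multiply mapped reads are not stated in any source used. The submitters' processing notes list STAR 2.7.3 and RSEM 1.3.1 and build mm10 without a role.

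Genotypes were compared within a stage with edgeR 4.0.16 (TMM, filterByExpr, robust quasi-likelihood F test) and Benjamini-Hochberg adjustment over all genes tested, called at adjusted p under 0.05. SEs were derived from the log2 change and its p. Allele ratios used edgeR with library, allele and allele-by-genotype terms, offsets from autosomal totals, and genes with a mean of at least 20 reads. The interactions used 1 fit of both stages. DESeq2 1.42.0 was an alternative. Windows were aligned with Biopython 1.88. Intervals and floors cover counting error only. The fits were tested on simulated data.

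Symbols were matched to RefSeq, 23975 by symbol and 81 by synonym; 21 stayed unmatched. The members and lists were chosen with earlier results of these data known. Named are the 8 members, the deleted genes, other PRAME rows that were called or high, list members called or with the lowest p, and the 5 genes most alike; Gm2042, Gm13102, Sgk1 and the rows named for window likeness or place were chosen after their values were seen. A planned level per transcript length and a planned search of gene descriptions for PRAME were not made. The CUT&RUN samples and the reciprocal-cross morulae were not analysed here.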

Additional observations from a re-analysis of the deposited data

Results flagged for a closer look

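In ExE matKO replicate 3, 35.8% of allele-assigned counts were maternal, against 51.5% to 52.6% in the other 3 matKO libraries. Its distance from the nearest of these was 0.93 of the range of the 4, which is further than is usual for 4 values, and chance alone does so for about 1 in 20 groups. No PRAME family row had a read in any ExE library, so no value of the 8 genes rests on this library.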

How the results depend on the processing

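Counts of called members moved as follows. In FGO 1 member was called, and 0 to 3 when each library was left out in turn. In morulae 0 were called, 1 with no filter on low counts, 1 with the DESeq2 Wald test, and 0 to 1 when each library was left out. For maternal over paternal reads in CTR morulae 1 was called, 2 with TMM offsets (Pramel6 added, log2 ratio -0.13), and 0 to 1 when each library was left out. Leaving out an FGO or morula library left 1 in its group, which then added nothing to the spread. The causes were not tested. No member was tested in ExE, so its counts there could only be 0. The results for allelic shifts in morulae stayed at 0 under each alternative run. Those for both differences between stages did too, but each gene was at or near 0 in 1 of the stages compared. Samples with the same replicate number are not said to be paired, and their deviations from the group means correlated at 0.25 in FGO, 0.18 in morulae, and 0.259 and 0.084 in ExE. With the replicate block the members called stayed at 1 in FGO and 0 in morulae and ExE, while calls over all genes went to 2021 against 972 in FGO, 310 against 12 in morulae and 923 against 0 in ExE.

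Other counts over all genes that moved by over 1.5 times were, in FGO, 1630 with no filter and 2029 without KO replicate 2, against 972. In morulae, against 12, they were 54 with DESeq2 size factors, 489 with no filter, 199 with DESeq2, 8 and 68 with maternal and paternal counts alone, and 7 to 524 when a library was left out. In ExE, against 0, they were 112 with no filter, 212 with DESeq2, 5 with maternal counts alone and up to 6 without a library. For maternal over paternal reads, calls were 805 and 860 without a CTR library, against 1922 in CTR morulae, and 1386 and 1392, against 2162 in CTR ExE. For allelic shifts they were 19 with a mean of at least 5 reads and 0 to 3 without a library, against 3 in morulae, and 4 to 14 without a library, against 5 in ExE. For the differences between stages they were 791 with no filter and 124 to 558 without a library, against 386 for morula minus FGO, and 238 and 1 to 74, against 38 for ExE minus morula. Depth limits Pramel4, at 21 to 27 reads a library, more than the other members.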

Other observations

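Among the other PRAME rows of morulae, Gm13128 (Pramel30) and Pramef17 (Pramel14) had start windows that were 97.7% identical and opposite allele shares. They were chosen after their values were seen. Gm13128 had 23 maternal reads of 28 and 24 of 31 in matKO morulae, against 38 of 43 and 26 of 29 in CTR morulae. Pramef17 had 4 maternal reads of 15 and 2 of 18 in matKO morulae, against 3 of 15 and 2 of 15 in CTR morulae. Gm13128 was called maternal in CTR morulae (log2 ratio 2.88, SE 0.47, adjusted p = 0.00655, edgeR), while Pramef17 had too few reads to be tested. How reads shared by such close copies were assigned is not given.

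Pramef12 (Pramel13), which was read in both stages, had 20 maternal reads of 61 and 21 of 69 in matKO morulae, against 39 of 57 and 29 of 68 in CTR morulae. The shift did not pass (log2 -1.37, SE 0.58, adjusted p = 0.616, edgeR).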
